A study of Mus musculus with 8 samples.

Results

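The complement system was followed in ribosome-bound RNA of the mouse hippocampus through 9 genes: C1qa, C1qb and C1qc, C3, C4b, C3ar1, Clu, Serping1 and Cd55. Every non-control probe that carried 1 of these gene names on the array was taken, which gave 11 of 55681 probes and 9 of 35715 gene names. C3 and Serping1 had 2 probes each and the other genes 1 each. The rule used gene names and no measured value. Each of 8 mice had its own array, and 4 mice belonged to the WT and 4 to the conditional knockout (CKO) group. WT mice were labelled Ctcf wild type and CKO mice homozygous for a loxP-flanked Ctcf allele, although the text on the series' design calls the controls loxP homozygotes too. Ctcf encodes CTCF, a DNA-binding factor with zinc fingers that organises chromosome loops. Mice of both groups also carried Camk2a-Cre and the RiboTag allele of Rpl22, were untreated, of C57BL/6 background and at least 3 months old. The labels gave 3 males and 1 female in each group. In the RiboTag method Cre recombinase turns on a ribosomal protein with a haemagglutinin tag, and an antibody to the tag recovers ribosomes together with the transcripts on them. The Camk2a promoter drives Cre in forebrain excitatory neurons, so the tag is meant to mark those neurons and not microglia or astrocytes.

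Complement is a cascade of proteins that marks cells, debris and synapses for removal. The classical pathway starts when C1q, a hexamer of trimers built from A, B and C chains, binds a target, after which C4 and then C3 are cut and deposited on it. Fragments of C3 signal through receptors such as C3ar1, and inhibitors such as Serping1, Clu and Cd55 hold the cascade in check. In the brain C1q is made mainly by microglia, the resident macrophages, and Clu and C4b are strongly expressed by astrocytes.

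An array had from 72.2% (CKO 3) to 81.5% (WT 1) of its probes well above background. Ctcf itself had a normalized log2 signal of -1.37 ± 0.30 (SD, n = 4) in WT and -2.24 ± 0.29 (SD, n = 4) in CKO. This was a difference of -0.87 (SE 0.22) with groups that did not overlap (limma adjusted p = 0.738). Signals are given as log2 of the scanner signal minus the 75th percentile of the array, so 0 is the level of that percentile and a step of 1 is a doubling. The array number limited the precision, with 4 mice per group, and levels of different probes cannot be set against each other. Slide 2 held WT 2, WT 3, CKO 1 and CKO 2, slide 3 held WT 4, CKO 3 and CKO 4, and slide 1 held WT 1 alone. Differences within slides 2 and 3 are therefore given beside those over all arrays.

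No member probe passed limma's test with Benjamini-Hochberg adjustment at 0.05, and neither did any other probe. The array-wide count was 0 of 44316 probes tested, or 0%, with a smallest adjusted p of 0.0568. At an unadjusted p under 0.05, 940 probes (2.12%) had higher and 1422 probes (3.21%) lower signal in CKO. With median scaling these counts were 1158 and 921, so the balance between directions depended on the scaling. They were 1475 and 509 with the authors' deposited table. That table differs in more than scaling, as 11030 (WT 3) to 15474 (CKO 3) spots per array were blank or not above 0. Of the 11 member probes 10 were bright enough to be tested, and 3 of these had higher signal in CKO at that unadjusted level: Clu, C4b and Cd55. Cd55 met the brightness filter through its CKO arrays, 3 of them against 1 WT array, so it is no support for that count. In the other direction there was none. Differences were above 0 for 5 member probes and below 0 for 5, against 39.4% above 0 among all probes tested. The median difference was 0.05 over the 10 member probes that met the filter and -0.0958 over all probes tested.

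**Figure D1:**
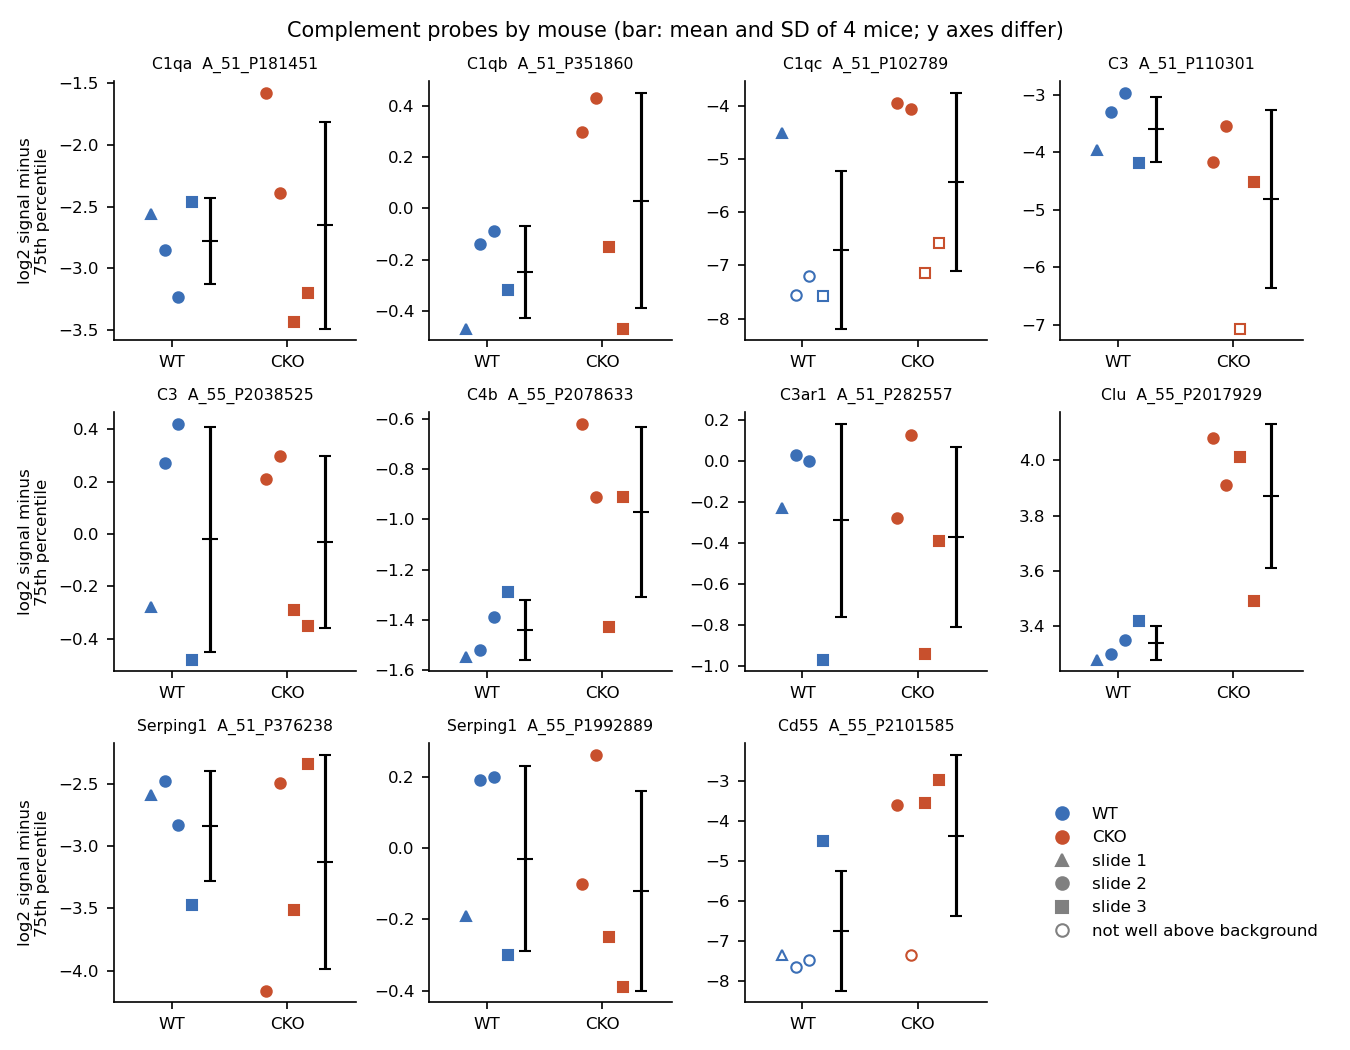
Normalized log2 signal of each complement probe in each mouse, with WT in blue and CKO in orange, slides shown by the symbol, and hollow symbols for arrays on which the probe was not well above background. Bars give the mean and SD of 4 mice, and each panel has its own y axis. The WT and CKO points are separate for Clu, whereas CKO 3 lies among the WT points for C4b and the points are mixed in the C3ar1 panel.

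The 3 chains of C1q are encoded side by side on chromosome 4, in the order C1qb, C1qc and C1qa in the RefSeq table of GRCm38.p6, and the 3 probes read separate transcripts. The sequences are shown because the chains are related proteins, and the longest run shared between any pair of these probes was 6 bases. The C1qa and C1qb probes are given whole and lie in the coding sequence of the globular head, the part of C1q that binds targets. The first 30 bases are given of the C1qc probe. All are in lower case with nothing marked.
C1qa probe A_51_P181451, mm9 chr4:136452409-136452468, minus strand: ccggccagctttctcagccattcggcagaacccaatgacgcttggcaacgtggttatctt
C1qb probe A_51_P351860, mm9 chr4:136436578-136436637, minus strand: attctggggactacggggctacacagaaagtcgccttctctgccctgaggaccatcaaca
C1qc probe A_51_P102789, mm9 chr4:136445766-136445825, minus strand: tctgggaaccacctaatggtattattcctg

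All 3 C1q chains had their highest signals in CKO 1 and CKO 2, while CKO 3 and CKO 4 had signals like those of WT mice. CKO 1 and CKO 2 were on slide 2, and CKO 3 and CKO 4 on slide 3. C1qa, the A chain, had normalized log2 signals of -2.56, -2.85, -3.23 and -2.46 in WT 1 to 4 and of -1.58, -2.39, -3.44 and -3.20 in CKO 1 to 4. The groups overlapped, and the lowest of the 8 values was that of CKO 3. Means were -2.78 ± 0.35 (SD, n = 4) in WT and -2.65 ± 0.84 (SD, n = 4) in CKO, a difference of 0.12 (SE 0.40; 95% confidence interval -0.78 to 1.02; limma adjusted p = 0.912). Its difference was 1.05 within slide 2 (limma unadjusted p = 0.0201) and -0.86 within slide 3 (limma unadjusted p = 0.0792). Slide 3 held 1 WT mouse, assumed here to vary like the others, so its differences rest on that mouse, for C1qa and for every other probe. Without CKO 1 it was -0.24.

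C1qb, the B chain, had signals of -0.47, -0.14, -0.09 and -0.32 in the WT mice and of 0.30, 0.43, -0.15 and -0.47 in the CKO mice. CKO 1 and CKO 2 lay above all WT mice and CKO 4 at the level of the lowest. The difference was 0.28 (SE 0.23; 95% confidence interval -0.23 to 0.80; limma adjusted p = 0.738), with 0.48 within slide 2 and 0.01 within slide 3. Neither chain differed between genotypes by more than its spread between mice.

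C1qc, the C chain, was near background and was not tested. It was well above background on 1 WT array and 2 CKO arrays, with signals of -4.50, -7.55, -7.20 and -7.57 in WT and of -3.94, -4.05, -7.15 and -6.58 in CKO. The probe is spotted 10 times on each array, and the copies show that these gaps are not those of single spots. All 10 copies were well above background on WT 1, all 8 of those used on CKO 1 and all 10 on CKO 2, against 1 of 10 on CKO 4 and none of the 8 or 9 copies used on each of the other arrays. Copies within an array had an SD of at most 0.99, on CKO 4. The 3 bright arrays had scanner signals of 226 to 275, and CKO 3 and WT 4 had 27.8 and 26.9, close to the surrogate value the scanner software gives to spots near 0. CKO 1 and CKO 2 were therefore bright for all 3 chains, and WT 1 for C1qc but not for C1qb.

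**Figure D2:**
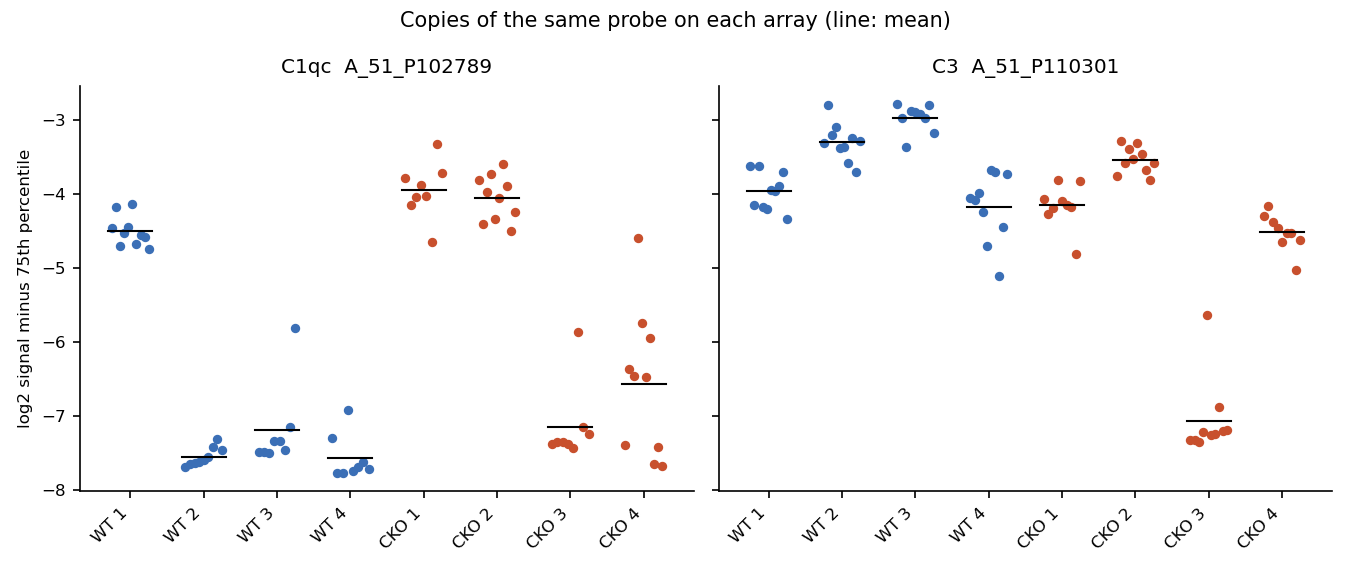
Normalized log2 signal of every unflagged copy of the C1qc probe and of 1 C3 probe on each array, with WT in blue and CKO in orange, the mean of the copies as a line, and no meaning to the position of a point within its array. Copies of C1qc cluster near -4 on WT 1, CKO 1 and CKO 2 and mostly below -6 elsewhere, and copies of C3 fall near -7 on CKO 3 alone.

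C4b encodes complement C4, which is cut by the C1 protease complex and deposited on the target. C4b and C3 both lie on chromosome 17. The window of the C4b probe is shown because it holds the polyadenylation signal, in capitals, and thus reads the last bases of the transcript. RefSeq accessions listed for the probe belong to both C4a and C4b, a near-identical pair of genes, so the signal may come from either. The C3 probes lie 262 bases apart at the 3′ end of the gene; 1 is shown whole, in coding sequence, and the other by its first 30 bases.
C4b probe A_55_P2078633, mm9 chr17:34865328-34865387, minus strand: ctctacagggtaAATAAAagaaaagctttt
C3 probe A_55_P2038525, mm9 chr17:57343678-57343737, minus strand: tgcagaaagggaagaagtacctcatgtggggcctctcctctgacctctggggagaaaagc
C3 probe A_51_P110301, mm9 chr17:57343416-57343475, minus strand: attcacagaatctatggtggtttatggttg

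C4b signal was higher in 3 of the 4 CKO mice than in any WT mouse. The values were -1.55, -1.52, -1.39 and -1.29 in WT and -0.62, -0.91, -1.43 and -0.91 in CKO, where CKO 3 stood within the WT range. The means were -1.44 ± 0.12 (SD, n = 4) and -0.97 ± 0.34 (SD, n = 4). The difference of 0.47 (SE 0.20), or 1.38-fold with a 95% confidence interval of 1.01 to 1.89, had a limma unadjusted p of 0.0428 and an adjusted p of 0.738. It was 0.69 within slide 2 and 0.11 within slide 3. The direction was the same in all 25 alternatives of processing and the unadjusted p was under 0.05 in 14 of them.

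C3 is the protein on which all complement pathways converge, and its 2 probes gave no common difference. Probe A_55_P2038525 had signals of -0.28, 0.27, 0.42 and -0.48 in WT and of 0.21, 0.30, -0.29 and -0.35 in CKO. Both groups spanned the same range, and the 3 mice of slide 3 had the 3 lowest values. The difference was -0.01 (SE 0.26; 95% confidence interval -0.60 to 0.57; limma adjusted p = 0.986), with -0.09 within slide 2 and 0.16 within slide 3. That interval leaves room for a change of either sign.

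The dimmer C3 probe, A_51_P110301, had signals of -3.96, -3.29, -2.97 and -4.18 in WT and of -4.16, -3.54, -7.07 and -4.52 in CKO. CKO 3 lay far below the other mice, and none of its 10 copies was well above background. At least 9 copies were on each other array. The difference was -1.22 (SE 0.69; 95% confidence interval -2.79 to 0.35; limma adjusted p = 0.738), and -0.47 without CKO 3. Within slide 2 it was -0.71 and within slide 3 it was -1.62. C3ar1, the receptor for the C3a fragment that microglia carry, is shown by the first 30 bases of its probe, which reads its 3′ end.
C3ar1 probe A_51_P282557, mm9 chr6:122798222-122798281, minus strand: tgccatcatctcagtgtagcacacacaatc

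C3ar1 had signals of -0.23, 0.03, 0.00 and -0.97 in WT and of -0.28, 0.13, -0.94 and -0.39 in CKO. Each group held 1 mouse near -1, WT 4 and CKO 3, both of slide 3. The difference was -0.08 (SE 0.30; 95% confidence interval -0.75 to 0.59; limma adjusted p = 0.925), and it was -0.09 within slide 2 and 0.31 within slide 3.

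Clu encodes clusterin, a secreted chaperone that binds the terminal complement complex and keeps it out of membranes. The probe reads the end of the transcript and holds the polyadenylation signal, again in capitals, so that it measures isoforms that end there whatever their first exon.
Clu probe A_55_P2017929, mm9 chr14:66600325-66600384, plus strand: cgcaactaatccAATAAAagccgccttgcg

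Clu had higher signal in every CKO mouse than in any WT mouse, and it was the only member probe with separate groups. Array-wide, 1.71% of the probes tested were separate in that direction and 1.57% in the other. The signals were 3.28, 3.30, 3.35 and 3.42 in WT, a spread of 0.06 (SD, n = 4) around 3.34. They were 4.08, 3.91, 4.01 and 3.49 in CKO, a spread of 0.26 (SD, n = 4) around 3.87. CKO 4 was close to the WT mice and the other 3 CKO mice stood well above them. The difference of 0.54 (SE 0.17), or 1.45-fold with a 95% confidence interval of 1.11 to 1.90, had a limma unadjusted p of 0.0127 and an adjusted p of 0.738. Within slide 2 it was 0.67 and within slide 3 it was 0.33. It ranged from 0.33 to 0.68 over 25 alternatives, and the unadjusted p was under 0.05 in 23 of them; it was 0.308 within slide 3 and 0.0551 in males alone. Clu was in the brightest of 10 equal bins of probes ordered by mean signal, where the median difference was 0.162, as against -0.568 in the dimmest bin.

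Serping1 encodes C1 inhibitor, which inactivates the C1 proteases. Its 2 probes shared no run over 5 bases. The first was placed at no position by the array's annotation and is shown whole, in coding sequence, and the other is shown by its first 30 bases.
Serping1 probe A_51_P376238: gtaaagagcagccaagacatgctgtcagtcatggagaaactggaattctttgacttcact
Serping1 probe A_55_P1992889, mm9 chr2:84605663-84605722, minus strand: tgggtaaacattgtcacccaagcttcagct

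Probe A_51_P376238 had signals of -2.59, -2.48, -2.83 and -3.47 in WT and of -4.16, -2.49, -3.51 and -2.34 in CKO. The CKO mice held both the highest and the lowest value. The difference was -0.28 (SE 0.42; 95% confidence interval -1.23 to 0.67; limma adjusted p = 0.807), with -0.67 within slide 2 and 0.55 within slide 3. Probe A_55_P1992889 had signals between -0.30 and 0.20 in WT and between -0.39 and 0.26 in CKO, with a difference of -0.09 (SE 0.20; limma adjusted p = 0.864). Neither probe differed between genotypes by more than its spread between mice.

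Cd55 encodes decay-accelerating factor, a membrane protein that takes apart C3 convertases on the cell's own surface. By the same RefSeq gene order it lies beside its paralog Cd55b in a stretch of chromosome 1 that also holds C4bp. The probe is shown by its first 30 bases.
Cd55 probe A_55_P2101585, mm9 chr1:132335716-132335775, minus strand: ctacatatgaacaggttttgtacttcagac

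Cd55 was near background in most WT mice and brighter in most CKO mice. It was well above background on 1 WT array, WT 4, and on 3 CKO arrays, with signals of -7.33, -7.63, -7.46 and -4.48 in WT and of -3.59, -7.35, -3.54 and -2.97 in CKO. On WT 3 and CKO 2 the scanner software had set the signal to its surrogate for spots near 0. Each group held 1 mouse with values like those of the other, so the groups overlapped. The difference of 2.36 (SE 1.04; 95% confidence interval 0.01 to 4.72; limma unadjusted p = 0.0495, adjusted p = 0.738) is a description only, since 3 of the 4 WT values lay near the floor and the probe met the filter through the CKO arrays. The unadjusted p was under 0.05 in 11 of 24 alternatives. Its size moved with the treatment of values near background, to 0.74 after normexp correction with quantile normalization. With the slide as a fixed block it was 1.74 (limma unadjusted p = 0.0784). Within slide 2 it was 2.07 and within slide 3 it was 1.23. The signal also followed the slide. Cd55 was well above background on every array of slide 3 (WT 4, CKO 3 and CKO 4) and, of slides 1 and 2, on CKO 1 alone. The mean of slide 3 was 3.01 above that of slides 1 and 2.

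**Figure D3:**
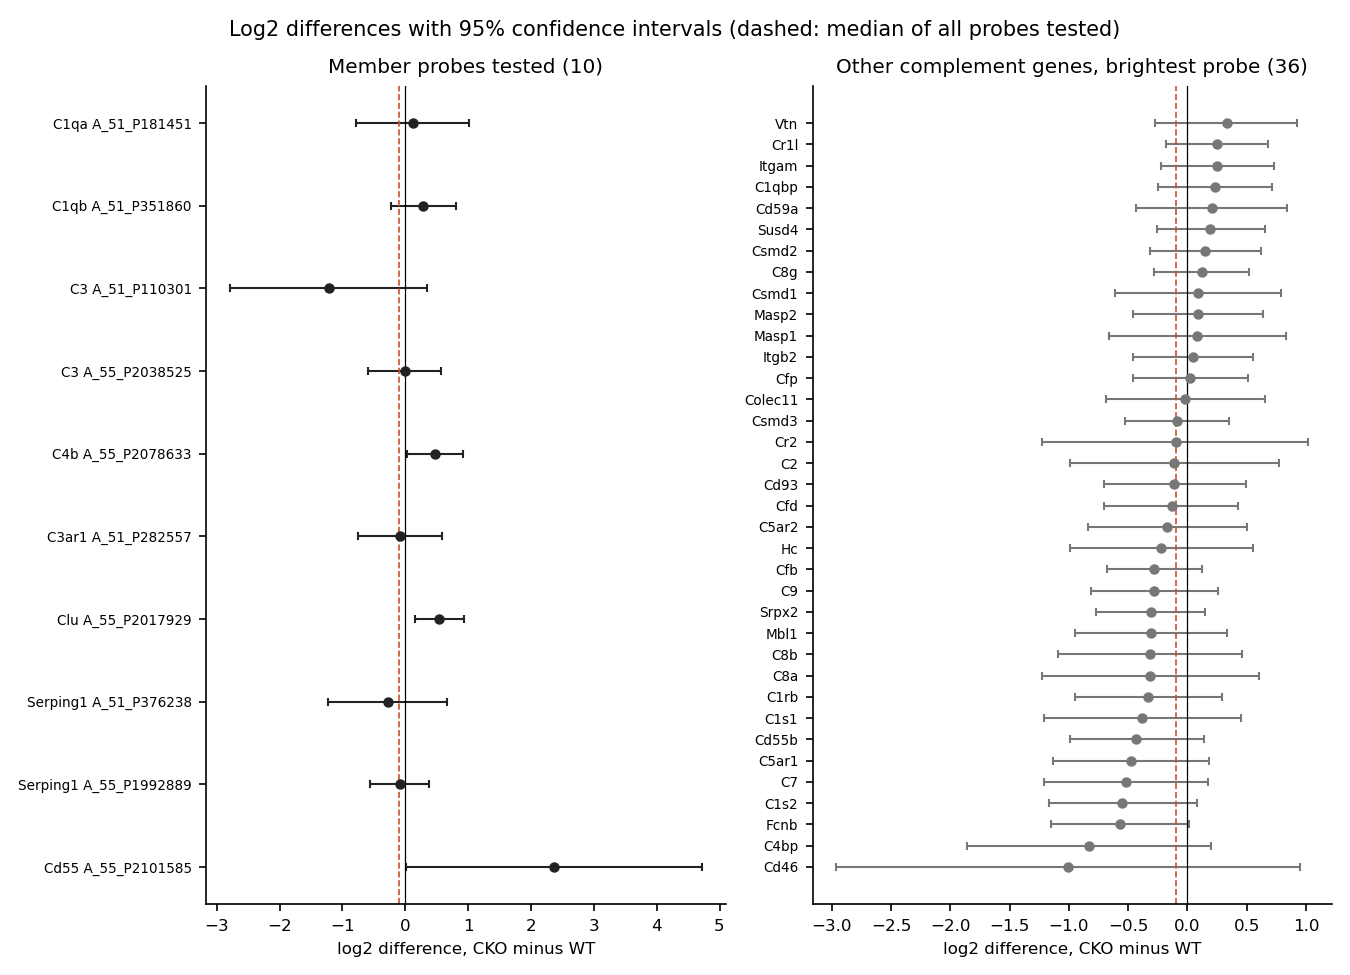
Log2 difference, CKO minus WT, with its 95% confidence interval for the 10 member probes tested (left) and for the brightest tested probe of 36 other complement genes (right), with the median of all probes tested as a dashed line. Intervals lie above 0 for C4b and Clu, that of Cd55 starts at 0.01 and rests on WT values near background, and all other intervals in both panels cross 0.

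The rest of the complement system was read from 51 further gene names, of which 47 had a probe, 67 probes in all. Of these 49 probes of 36 genes were bright enough to be tested, and none passed after adjustment. At an unadjusted p under 0.05, 2 probes had higher signal in CKO and none lower. The differences were above 0 for 16 probes and below 0 for 33, with a median of -0.11, near the -0.0958 of all probes. The terminal pathway, which builds the membrane attack complex, had 8 tested probes, 1 of them above 0, with a median of -0.32. All 8 lay in bins 1 (the dimmest) to 5 of the 10 bins by mean signal. The median differences of all probes in those bins ran from -0.568 to -0.146. The classical and lectin proteases and recognition proteins had a median of -0.07 over 14 probes, receptors -0.11 over 9, the alternative pathway -0.13 over 3, and regulators 0.09 over 15.

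Both probes past the unadjusted level had a second probe of the same gene that differed, and they are named here after their values were seen. Masp1, a protease of the lectin pathway, had 0.59 (SE 0.25; limma unadjusted p = 0.044) with probe A_52_P216226 and 0.08 with A_55_P1972386. Cd55b, the paralog of Cd55, had 0.40 (SE 0.16; limma unadjusted p = 0.038) with A_66_P106385 and -0.43 with A_55_P2073238. The limma adjusted p was 0.738 for both genes' higher probes.

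Among regulators that act beside the members, Cd59a, which blocks the membrane attack complex, had a difference of 0.21 (SE 0.28). Cr1l, the rodent regulator Crry, had 0.25 (SE 0.19). The integrin chains of complement receptor 3, Itgam and Itgb2, had 0.25 (SE 0.21) and 0.05 (SE 0.22) by their brightest probes. The 2 further probes of Itgam had -0.26 and -0.09. Their WT means were -1.25 and -0.74, far below the 5.83 of the brightest Itgam probe, so its difference may not reflect Itgam. C5ar1, the receptor for C5a, had -0.48 (SE 0.29), and C2, the protease part of the classical C3 convertase, -0.11 (SE 0.39). None of these passed the test, with limma adjusted p from 0.738 to 0.94. The C1 protease C1ra was too dim to be tested. It was well above background on 3 WT arrays and no CKO array with its brighter probe. The groups overlapped, with -5.19 in WT 2 and -5.17 in CKO 2. Another C1ra probe had a difference of -0.10. By the group means alone the brighter probe was at least 1.99-fold lower in CKO, a bound without an error or a test. This bound sets the WT mean against the lowest signal counted as above background, or the CKO signal where that was higher.

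**Figure D4:**
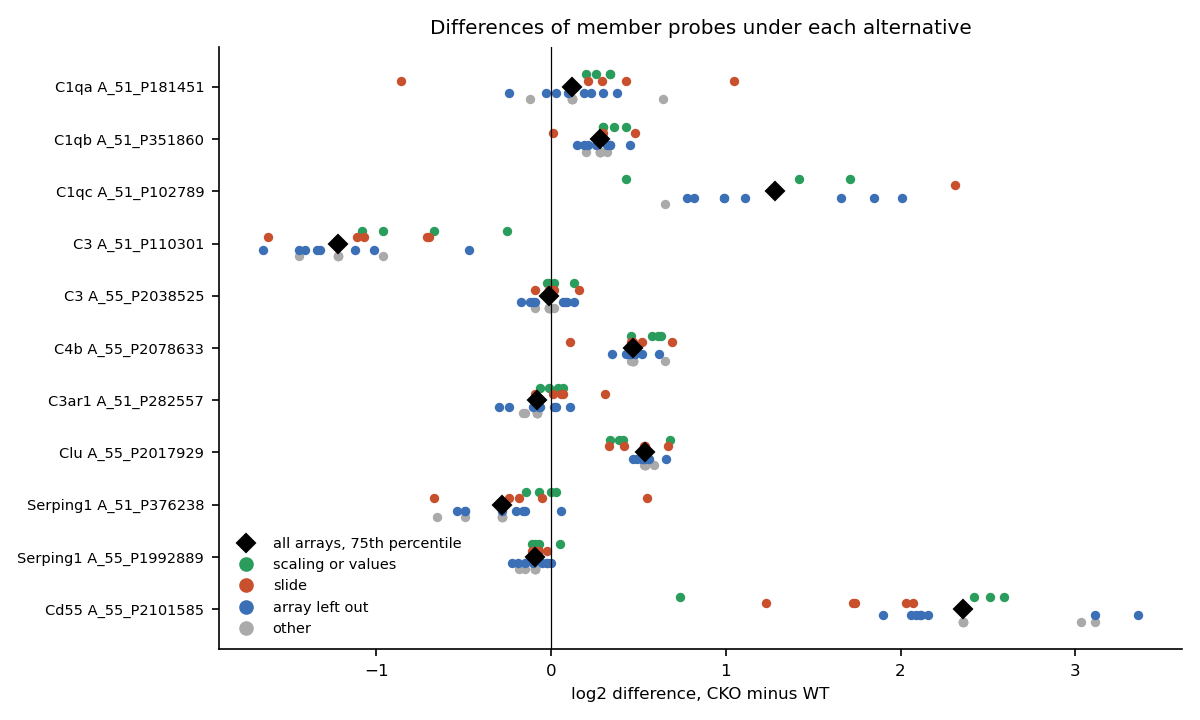
Log2 difference, CKO minus WT, of each member probe with all arrays and 75th percentile scaling (black diamond) and under each alternative of scaling, slide, array left out or other setting (points). Points of Clu, C4b, C1qb and Cd55 lie above 0 throughout, points of the dimmer C3 probe lie below it, and those of C1qa reach from -0.86 to 1.05.

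Markers of microglia and astrocytes were measured in the pulled-down RNA although the Cre driver is one of excitatory neurons. Of 16 microglial genes 14 were well above background on all 8 arrays, with Gpr34 on none, and of 12 astrocyte genes 10 were, with Gja1 on none. All 10 excitatory neuron genes were, with Prox1 of dentate granule cells and Fibcd1 of CA1 among them. Array-wide 38762 of 55663 probes were well above background on all 8 arrays, and the lists use each gene's brightest probe. These counts alone therefore do not measure the content of a cell type. Camk2a was bright (5.94 ± 0.15 in WT and 6.00 ± 0.30 in CKO, SD, n = 4). The number of cells of a type, the RNA per cell and the share of that RNA pulled down cannot be told apart in these samples.

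The linear signal summed over the microglial markers lay between 35.1 and 44.8 in WT and between 36.3 and 43.4 in CKO, in units of the array's 75th percentile. The groups covered the same range in this sum, most of which came from the bright Siglech and Csf1r probes. In WT these had means of 4.20 and 4.02. The other Siglech probe had -2.25 and the other Csf1r probes 0.86 and 0.20, so this sum may not reflect microglial content. Of 15 microglial genes tested, each by its brightest probe, 10 had differences above 0 (39.4% of all probes tested), with a median of 0.09. At an unadjusted p under 0.05, 4 had higher signal in CKO (2.12% of all probes tested). A dimmer Siglech probe was lower in CKO, at -0.57 (SE 0.24, limma unadjusted p = 0.042). Neither Csf1r (0.04, SE 0.17) nor Cx3cr1 (0.45, SE 0.33) passed the test. Among the CKO mice the sum was 42.4 and 43.4 in CKO 1 and CKO 2, where the C1q chains were brightest, and 36.3 and 42.9 in CKO 3 and CKO 4. The median log2 signal over the same genes was -1.21 and -1.03 in CKO 1 and CKO 2 and -1.36 and -1.66 in CKO 3 and CKO 4, against -1.28, -1.82, -1.73 and -1.58 in WT 1 to 4. By the median, which weights all genes alike, the microglial markers were thus highest in the same 2 mice as the C1q chains, with CKO 1 close to WT 1. CKO 1 and CKO 2 were on slide 2, and CKO 3 and CKO 4 on slide 3. Differences between these pairs of mice and between slides cannot be told apart. The part of microglial content in the C1q signals was not tested.

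Beside Clu and C4b, the astrocyte sum lay between 28.3 and 31.1 in WT and was 41.7, 37.2, 35.1 and 30.6 in CKO 1 to 4. CKO 4 had the lowest astrocyte sum and the lowest Clu signal of the CKO mice. Among CKO mice the excitatory neuron sum was also lowest in CKO 4, with 146, 141, 149 and 116 in CKO 1 to 4, against 109 to 129 in WT. The bright Camk2a probe in that sum was likewise lowest in CKO 4, at 5.66. By the median log2 signal over the neuron genes CKO 2 was the lowest CKO mouse. By the median log2 signal over the astrocyte genes, which was 0.53, 0.54, -0.11 and 0.04 in CKO 1 to 4 and 0.22, 0.06, 0.31 and -0.01 in WT 1 to 4, CKO 3 was the lowest mouse, although its Clu signal was the second highest. Of the astrocyte genes tested, 8 of 10 had differences above 0 (39.4% of all probes tested), with a median of 0.24. At an unadjusted p under 0.05, 2 had higher signal in CKO (2.12% of all probes tested). The astrocyte marker Gfap had 0.34 (SE 0.26). Choroid plexus and ependyma markers summed to between 3.64 and 7.06 in WT and between 7.17 and 13.6 in CKO, without overlap, with Aqp1 above background on no array. Most of this sum came from the Ttr probe. The list's median log2 signal overlapped, at -3.13, -3.81, -3.51 and -3.57 in WT 1 to 4 and -3.54, -2.63, -3.52 and -2.83 in CKO 1 to 4. All 5 genes tested had differences above 0 (39.4% of all probes tested), with a median of 0.37 and the lowest, Foxj1, at 0.01. At an unadjusted p under 0.05, 2 had higher signal in CKO (2.12% of all probes tested). Ttr, the transthyretin of choroid plexus, had 1.16 (SE 0.36; limma unadjusted p = 0.0108, adjusted p = 0.738). The part of these cell types in the Clu and C4b differences was not tested.

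The sums of the other cell types overlapped between the groups. Oligodendrocyte markers summed to between 42.6 and 57.1 in WT and between 47.6 and 53.7 in CKO, with Mbp at 0.21 (SE 0.16) and Ugt8a above background on no array. Of 11 oligodendrocyte genes tested 9 had differences above 0 (39.4% of all probes tested), with a median of 0.19. At an unadjusted p under 0.05, 3 had higher signal in CKO (2.12% of all probes tested). These were Enpp2 (0.66), Mal (0.68) and Mag (0.54), named after their values were seen, and Enpp2 is also a gene of choroid plexus. Markers of endothelium, pericytes and meninges summed to between 8.94 and 10.4 and between 9.01 and 10.8, with Pecam1 at -0.85 (SE 0.34; limma unadjusted p = 0.0356) and Pdgfrb above background on no array. Excitatory neuron genes summed to between 109 and 129 in WT and between 116 and 149 in CKO, and interneuron genes to between 54.2 and 74.2 and between 54.1 and 85.4. Most of the interneuron sum came from a bright Lhx6 probe, at 5.83 in WT and 5.95 in CKO. The other Lhx6 probes were above background on no array, so this sum may not reflect interneuron content. No marker passed after adjustment.

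**Figure D5:**
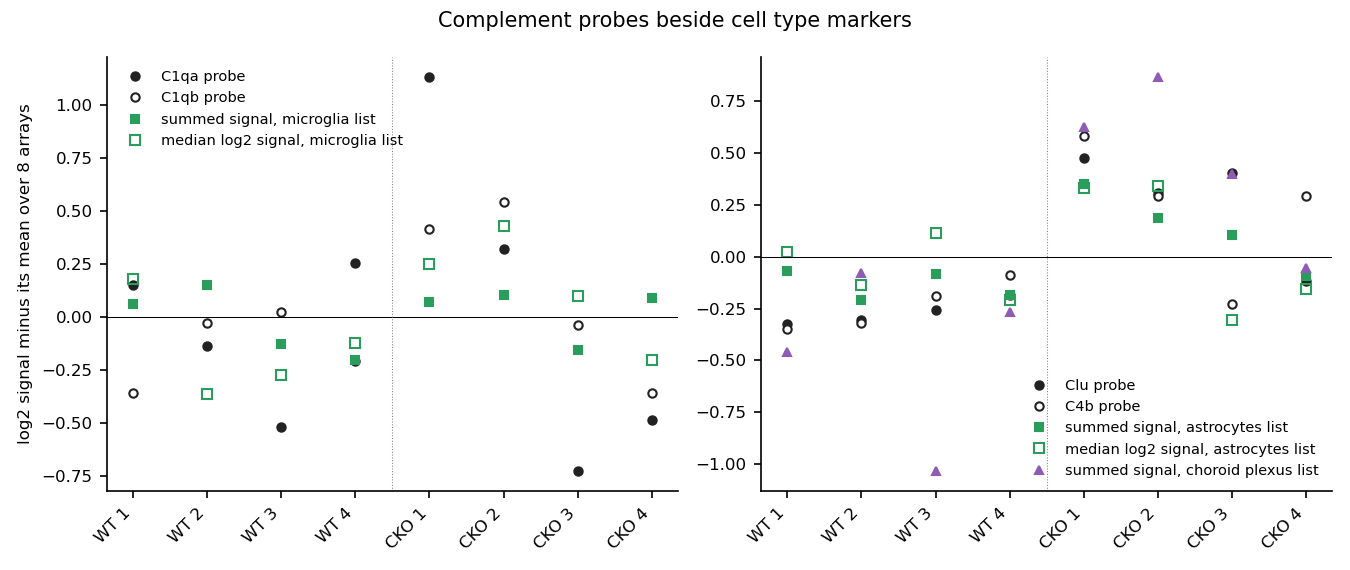
Log2 signal in each mouse, minus its mean over the 8 arrays, of the C1qa and C1qb probes beside the microglial markers (left) and of the Clu and C4b probes beside the astrocyte and choroid plexus markers (right), where filled green and purple symbols give the log2 of a list's summed signal and hollow squares its median log2 signal. C1qa, C1qb and the microglial median are highest in CKO 1 and CKO 2, and among CKO mice Clu and the astrocyte sum are lowest in CKO 4 and C4b and the astrocyte median in CKO 3.

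Clu, C4b and C1qa were each set against 16730 genes for likeness over the 8 arrays, as the root-mean-square difference of log2 signals centred on their own means. Nearest to Clu, whose own root-mean-square deviation was 0.315, were Norad (0.0878), a long noncoding RNA, the neuronal kinesin gene Kif5a (0.0914) and Taf3 (0.0915), a subunit of the transcription factor TFIID. Nearest to C4b, whose own deviation was 0.321, were Gng8 (0.0996), Stard5 (0.122) and Ddah1 (0.139). C1qa had no gene as close: its own deviation was 0.562, and the nearest were Map10 (0.297), Pla2g7 (0.313) and Ctso (0.322).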

How the data were processed

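Ribosome-bound RNA was measured on 1-colour Agilent arrays. Per the labels' protocols RNA was amplified and labelled by a Kreatech kit. The authors deposited scanner files with an intensity per spot, from Agilent Feature Extraction (version 11.5 per the submitters' processing notes), whose processed signal is background-subtracted and set to a surrogate value near 0. Per the file headers probe positions are on mm9. A further deposited table, of unstated centring and between-array normalization, gave an intensity on a linear scale that followed the scanner's ranks (Spearman at least 0.9988), with medians of 1263 to 1987.

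Control spots and flagged outliers were left out, and no spot was saturated. Copies of a probe were averaged as log2 values, and each array's 75th percentile was subtracted. A probe counted as well above background on an array if at least 50% of its used copies were by the scanner's call, and 44316 of 55663 probes, well above background on at least 4 arrays, were tested. Groups came from the sample titles, which call the mice biological replicates. Every probe was fitted with limma 3.58.1 in R 4.3.3 (lmFit, eBayes, two-sided, Benjamini-Hochberg over all probes). Within-slide fits used the spread of all arrays within slide and genotype. The fit was tested on simulated data. The members and the lists of genes were chosen with earlier results of these data known. Text names all members, other complement genes past an adjusted p of 0.05 or whose brightest probe had an unadjusted p under 0.05 (none), 8 further complement genes (of which 1 is not reported here), 8 markers, and the 3 genes most like C1qa, C4b and Clu. Other genes are named for a count or sum they explain or as markers above background on no array. Alternatives were the scaling, background correction, deposited values, filters, prior, array weights, slide, sex, replicate number and each array left out. Pull-down input RNA was not analysed here.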

Additional observations from a re-analysis of the deposited data

Results flagged for a closer look

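In 3 of 22 groups of 4 arrays, formed by 11 probes and 2 genotypes, 1 mouse stood apart from the others by Dixon's test, with a gap of 0.859 to 0.904 of the group's range. Chance gives about 1 in 20 such groups. C1qc was highest in WT 1 at -4.50, where the next WT mouse had -7.20. Cd55 was highest among WT mice in WT 4 at -4.48, where the next had -7.33. Cd55 was lowest among CKO mice in CKO 2 at -7.35, where the next had -3.59. Both probes were near background on the arrays at the low end.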

How the results depend on the processing

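After adjustment no member probe passed in any of 25 alternatives. Array-wide, 5 probes passed with normexp and quantile normalization, 3 without the filter on dim probes, 3 with probes well above background on all arrays, 3 with a trended and robust prior, 1 with 1 probe a gene and 1 with slide as a random block, and 0 to 1 with an array left out (1 without WT 2). Member probes with an unadjusted p under 0.05 and higher signal in CKO numbered 1 with slide as a fixed block, 0 within slide 3, 1 in males only and 1 to 3 with an array left out (1 without WT 1, WT 2, WT 3, CKO 1 or CKO 4). Lower ones numbered 1 with quantile normalization and slide as a block together, a setting chosen after seeing the data, and 0 to 1 with an array left out (1 without CKO 2).

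Differences near 0 changed sign. With median scaling they were 0.13 for C3 (A_55_P2038525), 0.07 for C3ar1, 0.05 for Serping1 (A_55_P1992889) and 0.03 for C2. With quantile normalization they were 0.03 for C2, -0.08 for Camk2a and -0.09 for Csf1r. With normexp they were 0.03 for Serping1 (A_51_P376238), 0 for C2, -0.05 for Camk2a and -0.12 for Csf1r. With the deposited values they were 0.02 for C3, 0.04 for C3ar1, 0 for Serping1 (A_51_P376238), 0.14 for C2, -0.04 for Camk2a and -0.20 for Csf1r. Csf1r had -0.01 with array weights and -0.08 within slide 2. With slide as a fixed and then a random block C3 had 0.01 and 0.02, C3ar1 0.07 and 0.01, and C2 0.11 and 0.01. Within slide 3 the values were -0.86 for C1qa, 0.16 for C3, 0.31 for C3ar1, 0.55 for Serping1 (A_51_P376238), 0.51 for C2, -0.29 for Itgb2, -0.06 for Camk2a and -0.03 for Gfap. In males only C1qa had -0.12, C3 0.02 and Itgb2 -0.07. With quantile normalization and slide as a block C3ar1 had 0.06, C2 0.18, Camk2a -0.07 and Csf1r -0.01. With an array left out, ranges were -0.24 to 0.38 for C1qa, -0.17 to 0.13 for C3, -0.30 to 0.11 for C3ar1, -0.54 to 0.06 and -0.22 to 0.00 for the Serping1 probes, -0.46 to 0.14 for C2, -0.05 to 0.22 for Itgb2, -0.03 to 0.17 for Camk2a and -0.04 to 0.11 for Csf1r. The cause of these changes was not tested.

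Scaling moved the median difference of all probes from -0.0958 to 0.0477 with median scaling and -0.00998 with quantile normalization. It was -0.00483 with normexp and 0.0303 with the deposited values, which differ in more than scaling. Array-wide counts at an unadjusted p under 0.05 were 940 higher and 1422 lower, and 1475 and 509 with the deposited values; lower counts were 921, 796 and 790 with median scaling, quantile normalization and normexp. They were 2315 and 3909 with array weights, 1896 and 3568 without WT 4, and 446 and 880 without CKO 3. Replicate numbers do not pair the mice: deviations of same-numbered mice correlated at -0.31, 0.344, -0.393 and 0.0362, and no WT mouse was nearest to the CKO mouse of its own number. With the replicate block 508 probes had higher signal at an unadjusted p under 0.05, and no member passed after adjustment. Values near background, as for C1qc, Cd55 and the dimmer C3 probe, limit what can be said of these probes.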
